A study of Mus musculus with 12 samples.

Results

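Genes of pyruvate entry and the tricarboxylic acid (TCA) cycle were followed across gonadal white adipose tissue (GWAT) of WT and HoipA-KO mice. The set was chosen by name and held 9 of the 55281 genes in the estimated count table, and it was read in all 12 libraries. Its members were Pdha1 and Pdhb (pyruvate dehydrogenase), Pc (pyruvate carboxylase), Cs (citrate synthase), Idh3a (isocitrate dehydrogenase), Ogdh (2-oxoglutarate dehydrogenase), Suclg1 (succinate-CoA ligase), Fh1 (fumarate hydratase) and Mdh2 (malate dehydrogenase). Of these, 8 were found by their symbol, and Pc was found under its current symbol Pcx, for which RefSeq lists Pc as a synonym. All 9 passed the filter on low counts, with between 2806 and 45139 counts in any library.

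Male Hoip fl/fl mice without Cre (AdipoQ.Cre-, WT) were compared with Hoip fl/fl mice carrying AdipoQ.Cre (AdipoQ.Cre+, HoipA-KO), in which the Adiponectin promoter drives Cre in mature adipocytes. Hoip, encoded by Rnf31, is the catalytic subunit of the linear ubiquitin chain assembly complex. The floxed alleles were therefore carried by all groups, and the tissue held all other GWAT cells with Hoip intact. Mice received control diet (CD, 14% fat in the labels) or high-fat diet (HFD, 60% fat) for 16 weeks from 6 weeks of age and were 22 to 24 weeks old. Each of the 4 groups had 3 libraries, and each library was made from pooled material of 3 mice, so animals cannot be separated within a library.

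Pyruvate crosses the inner mitochondrial membrane through a carrier made of Mpc1 and Mpc2. It is then either oxidised to acetyl-CoA by the pyruvate dehydrogenase (PDH) complex or carboxylated to oxaloacetate by Pc. The enzymes of the cycle oxidise the acetyl group to carbon dioxide and pass electrons to the respiratory chain. In white adipocytes, citrate also leaves the mitochondrion to supply acetyl-CoA for fatty acid synthesis, and pyruvate carboxylation refills the oxaloacetate that goes with it.

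The libraries held between 30513500 and 60540260 counts. Rnf31 lay between 12.6 and 22.5 CPM (counts scaled to a common library size) in all libraries and was not called between genotypes, with log2 fold changes of −0.08 on CD and 0.13 on HFD, which in whole tissue does not test the deletion in adipocytes. WT CD replicate 3 stood apart. Its correlation with the other WT CD libraries was at most 0.592 on the log2(CPM + 1) scale, its male germ cell markers summed to 11114 CPM against 388 or less elsewhere, and 5133 genes were more than 8 times above every other library. WT CD replicate 2 carried 14764 CPM of epididymal epithelium markers, against 1.24 CPM in replicate 1. Fold changes and adjusted p-values are therefore given first from 11 libraries without WT CD replicate 3, as in the comparisons deposited with the series, and then with all 12. They were obtained with the quasi-likelihood test of edgeR, and p-values were adjusted by the Benjamini-Hochberg method across all tested genes. A gene is called changed at an adjusted p under 0.05. On CD, each WT value in the fit with 11 libraries rests on 2 libraries that themselves differed. HoipA-KO HFD replicate 1, kept in both fits, carried 1285 CPM of epididymal epithelium markers, against 0.135 and 123 CPM in replicates 2 and 3. It also carried 148 CPM of skeletal muscle markers, against 5.16 and 11.2 CPM in those replicates. WT CD replicate 1 carried 101 CPM of these muscle markers. The part of such transcripts in the levels of the members was not tested. Levels are CPM with TMM scaling over all 12 libraries, and levels of different genes are not compared.

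On CD, 7 of the 9 genes were called lower in HoipA-KO than in WT: Pdha1, Pdhb, Pc, Cs, Idh3a, Suclg1 and Fh1. The background was 18.8% of 18427 genes tested called lower. The median log2 fold change of the 9 was −0.95, while that of all genes tested was −0.06. Every HoipA-KO library lay below both WT libraries for those 7 genes, a pattern held by 25.7% of all genes tested. With all 12 libraries, 4 were called lower (Pdha1, Pdhb, Pc and Suclg1) with 19.1% of genes called lower, and the medians were −0.71 for the 9 genes and −0.21 for all genes. The control libraries decided part of this count. Without WT CD replicate 1, 5 were called and Cs and Idh3a were not (log2 fold changes of −0.33 and −0.32), the median of the 9 was −0.59, and 20.2% of genes were called lower. Without WT CD replicate 2, which leaves WT CD replicate 1 as the lone control, all 9 were called lower, with a median of −1.23 and with 15.7% of genes called lower.

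On HFD, 5 of the 9 were called lower in HoipA-KO: Pdha1, Pdhb, Pc, Idh3a and Suclg1. The background was 7.62% of genes called lower. All 9 genes had every HoipA-KO library below every WT library, as did 22.7% of genes tested, and their median log2 fold change was −0.55 against 0.06 over all genes. With all 12 libraries only Pc was called, with 2.25% of genes called lower, although the HFD libraries were the same and the median was −0.57. The common biological coefficient of variation, 1 value for all genes and groups in a fit, was 0.514 with 12 libraries and 0.394 with 11. Its part in the lost calls was not tested. Leaving out WT HFD replicate 1, WT HFD replicate 2 or HoipA-KO HFD replicate 2 left Pc alone called. The share of genes called lower was then 1.3%, 1.6% and 1.35%, in that order. Leaving out HoipA-KO HFD replicate 3 or HoipA-KO CD replicate 1 left 2 called, with 2.42% and 4.7% of genes called lower. The loss of calls was thus not particular to the members.

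**Figure D1:**
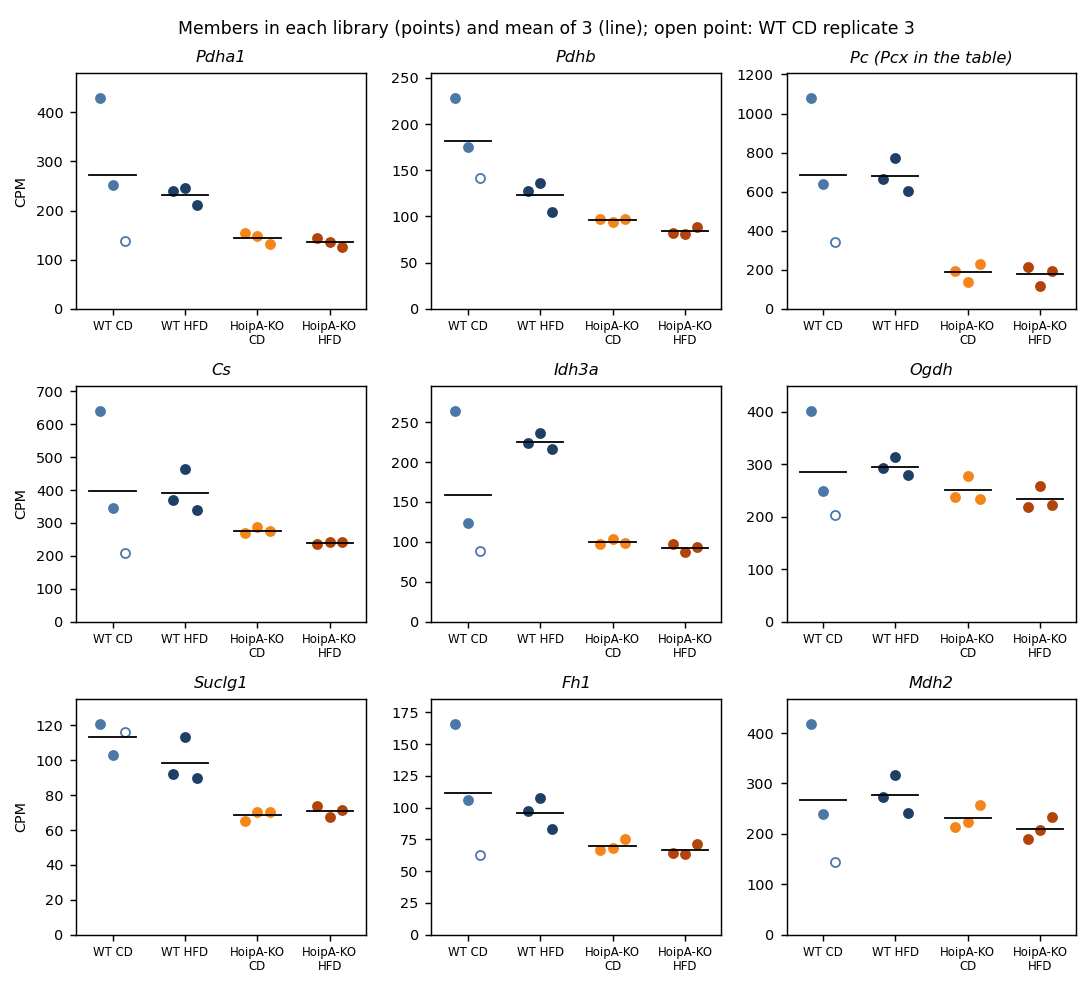
Levels of the 9 genes in CPM (vertical axis, from 0) in each library, grouped by genotype and diet. Points are libraries, lines are means of 3 libraries and the open point is WT CD replicate 3. For Pc, the 6 HoipA-KO libraries lay between 118 and 228 CPM and the 6 WT libraries between 342 and 1077 CPM, while with all 12 libraries the genotypes overlapped on CD for Pdha1, Cs, Idh3a, Ogdh, Fh1 and Mdh2.

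Pc, the enzyme that carboxylates pyruvate to oxaloacetate, showed the largest fall of the 9 on either diet. It was at 1077, 641 and 342 CPM in the WT CD libraries and at 193, 138 and 228 CPM in the HoipA-KO CD libraries. On HFD it was at 665, 773 and 604 CPM in WT and at 214, 118 and 195 CPM in HoipA-KO. No HoipA-KO library reached a WT library, including WT CD replicate 3. The log2 fold change was −2.20 ± 0.32 (SE) on CD, or 0.217 times the WT level, with an adjusted p of 0.000996. The HFD value was −1.95 ± 0.30, or 0.258 times, with an adjusted p of 0.00976. Pc was the only member called on both diets with 12 libraries as well (−1.92 on CD, adjusted p = 0.00665; −1.97 on HFD, adjusted p = 0.0373) and with any one library left out. Within genotypes its libraries spread more than those of any other member in HoipA-KO, by 1.65 times from lowest to highest on CD and 1.81 times on HFD.

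The RefSeq promoters of Pc are shown as the start regions of the member with the largest fall, beside that of Ogdh, whose log2 fold change was the smallest of the 9 on both diets. Each window runs from 250 bases before to 50 after an annotated start, 5′ to 3′ on the gene's strand in GRCm38.p6. Pc has 2 windows on chromosome 19, at chr19:4510222-4510521 and chr19:4594069-4594368, and the Ogdh window is at chr11:6291347-6291646, all on the plus strand. Capitals mark CCAAT on either strand and TGACGTCA, the cyclic AMP response element.
Pc, upstream start: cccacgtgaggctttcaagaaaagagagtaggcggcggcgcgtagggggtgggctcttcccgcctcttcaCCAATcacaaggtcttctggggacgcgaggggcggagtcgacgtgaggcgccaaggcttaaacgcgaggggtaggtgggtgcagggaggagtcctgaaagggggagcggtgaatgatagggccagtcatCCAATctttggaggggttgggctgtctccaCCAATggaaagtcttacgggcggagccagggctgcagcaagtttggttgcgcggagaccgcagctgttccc
Pc, downstream start: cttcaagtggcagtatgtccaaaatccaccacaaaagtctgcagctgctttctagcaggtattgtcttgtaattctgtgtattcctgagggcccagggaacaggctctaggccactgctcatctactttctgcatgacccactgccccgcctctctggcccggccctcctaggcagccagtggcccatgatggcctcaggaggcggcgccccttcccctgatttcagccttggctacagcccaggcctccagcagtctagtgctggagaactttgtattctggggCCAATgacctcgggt
Ogdh, first start: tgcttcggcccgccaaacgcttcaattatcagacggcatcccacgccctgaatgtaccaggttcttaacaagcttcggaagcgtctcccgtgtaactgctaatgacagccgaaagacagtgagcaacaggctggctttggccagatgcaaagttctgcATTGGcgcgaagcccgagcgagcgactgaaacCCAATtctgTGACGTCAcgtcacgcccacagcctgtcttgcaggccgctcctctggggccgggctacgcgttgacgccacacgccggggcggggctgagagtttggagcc
The upstream Pc window held 3 matches to CCAAT, the downstream Pc window 1, and the Ogdh window 2 together with 1 TGACGTCA. The counts per gene cannot say which Pc start was used.

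Of the members, 8 matched the RefSeq promoter table, with 14 windows in all. Idh3a was not matched. Both strands were searched for 7 motifs, among 32851 promoters of the same length. CCAAT was present in 11 of the 14 windows, of Cs, Fh1, Ogdh, Pc and Pdhb, and in 37.4% of all promoters. TGACGTCA was present in 4 windows, of Mdh2 and Ogdh, and in 1.79% of all promoters. GGGCGGGG, a GC box, was in 6 windows and in 17.6% of all promoters, and GCGCANGCG, read by nuclear respiratory factor 1, was in 2 windows of Ogdh and in 6.25% of all promoters. AAGGTCA was in 1 window of Ogdh and in 4.72% of all promoters. TCAAGGTCA, which contains AAGGTCA and is read by estrogen-related receptors, was in none of the 14 windows and in 0.423% of all promoters, and CCGGAAG, an ETS motif, was in none and in 8.86%. Windows of 1 gene overlap for Ogdh and are not independent, and a match describes letters, not binding.

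Pdha1 encodes the alpha subunit of the E1 component, which decarboxylates pyruvate and carries the sites that PDH kinases phosphorylate. It was at 428, 252 and 139 CPM in WT CD, and at 154, 148 and 131 CPM in HoipA-KO CD. Its HFD levels were 240.1, 245 and 212 CPM in WT and 144, 137 and 125 CPM in HoipA-KO. WT CD replicate 3 lay inside the HoipA-KO range, and no other WT library did. On the log2 scale the fold change was −1.23 ± 0.21 on CD (adjusted p = 0.00204, or 0.0412 with 12 libraries), and −0.81 without WT CD replicate 1. The HFD value was −0.78 ± 0.19 (adjusted p = 0.0334, or 0.180 with 12 libraries).

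Pdhb, the beta subunit of the same component, was at 228, 176 and 142 CPM in WT CD and at 97.7, 94.5 and 97.3 CPM in HoipA-KO CD. On HFD the levels were 128, 136 and 105 CPM in WT and 82.0, 81.5 and 88.8 CPM in HoipA-KO. The genotypes did not overlap on either diet. Its fold change on CD was −1.06 ± 0.16 on the log2 scale (adjusted p = 0.00105, or 0.00415 with 12 libraries). That on HFD was −0.55 ± 0.14 (adjusted p = 0.0381, or 0.112 with 12 libraries). Its estimated counts were not whole in any of the 12 libraries, while those of the other 8 members were whole within 0.01. The reason was not tested, and its level is uncertain to that extent.

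**Figure D2:**
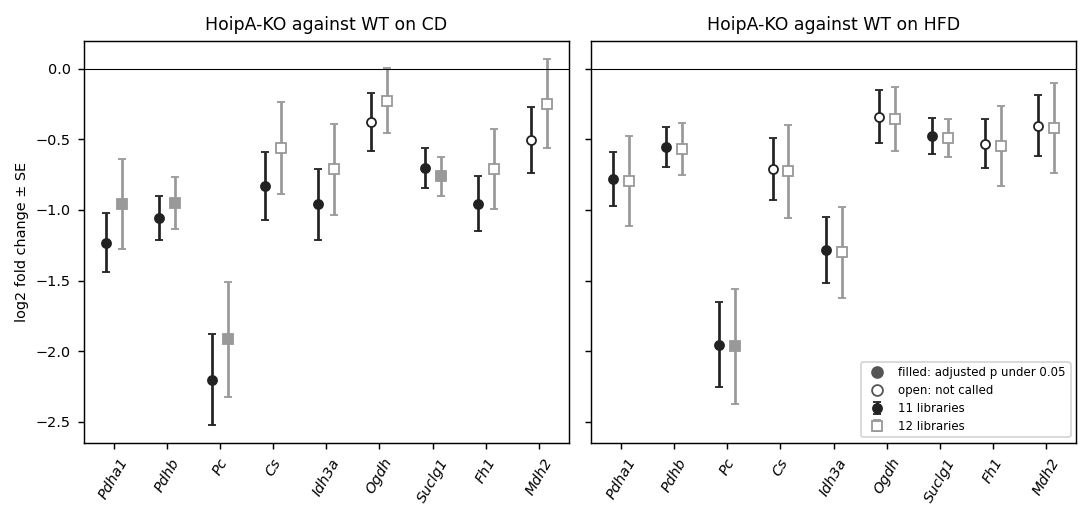
Log2 fold changes of HoipA-KO against WT (vertical axis, with bars of 1 SE) for the 9 genes on CD (left) and HFD (right). Circles are the fit with 11 libraries, squares the fit with 12, and filled symbols passed an adjusted p of 0.05. Pc lay lowest in both panels, at −2.20 and −1.95, and with 12 libraries Pc was the only filled square on HFD.

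Pc was set against Pdha1 within each library, because they stand for the alternative fates of pyruvate in the mitochondrion. The pair was chosen with earlier results of these data known. The log2 ratio of their CPM was 1.33, 1.35 and 1.30 in the WT CD libraries and 1.47, 1.65 and 1.51 in WT HFD. It was 0.33, −0.10 and 0.79 in HoipA-KO CD and 0.58, −0.21 and 0.63 in HoipA-KO HFD. All 6 HoipA-KO libraries were below all 6 WT libraries. WT CD replicate 3 had the same ratio as the other WT CD libraries, although the level of each gene was the lowest of WT there. HoipA-KO was lower by 1.10 on the log2 scale over both diets (two-sided exact permutation test of the genotype labels within each diet, p = 0.005, the smallest that 400 permutations allow). With Pdhb in place of Pdha1 the difference was −1.16, with the same p. Without WT CD replicate 3 the difference for Pc to Pdha1 was −1.10, with p = 0.01 in the same permutation test (200 permutations). Pc also fell more than every other member, by log2 fold changes of −2.20 against −1.23 to −0.38 on CD. On HFD these were −1.95 against −1.28 to −0.34. Ratios of Pc to the other members were not tested, so the lower ratio is not shown to be particular to the fates of pyruvate.

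**Figure D3:**
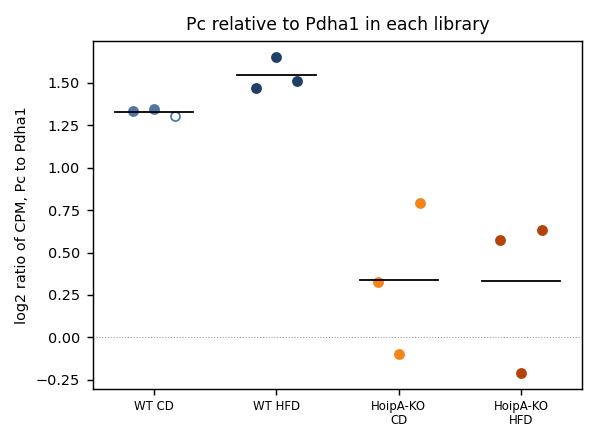
Log2 ratio of the CPM of Pc to that of Pdha1 (vertical axis) in each library by group, with the mean of 3 libraries as a line and WT CD replicate 3 as the open point. The WT libraries lay between 1.30 and 1.65 and the HoipA-KO libraries between −0.21 and 0.79.

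Cs condenses acetyl-CoA with oxaloacetate to form citrate. It was at 639, 346 and 207 CPM in WT CD and at 269.7, 286 and 274 CPM in HoipA-KO CD. Under HFD it lay at 369.9, 463 and 341 CPM in WT and at 235, 242 and 242 CPM in HoipA-KO. The HoipA-KO libraries were within 1.06 times of each other on CD and 1.03 times on HFD, and WT CD replicate 3 lay below all of them. The log2 fold change on CD was −0.83 ± 0.24 (adjusted p = 0.0231, or 0.201 with 12 libraries), and the call was also lost when HoipA-KO CD replicate 1 or 2 was left out (adjusted p = 0.0666 and 0.0527). The HFD value was −0.71 ± 0.22 and was not called (adjusted p = 0.0631).

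Idh3a, the catalytic alpha subunit of the NAD-dependent isocitrate dehydrogenase, was at 264, 124 and 88.0 CPM in WT CD. It was at 96.8, 103 and 98.2 CPM in HoipA-KO CD. On HFD the WT libraries were at 224, 236 and 216 CPM and the HoipA-KO libraries at 96.7, 87.7 and 93.5 CPM. All WT HFD libraries thus lay above 2 of the 3 WT CD libraries. Its log2 fold change was −1.28 ± 0.23 on HFD (adjusted p = 0.0141, or 0.0597 with 12 libraries), second to Pc there, and −0.96 ± 0.25 on CD (adjusted p = 0.0152, or 0.105 with 12 libraries).

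Ogdh, the E1 component of the 2-oxoglutarate dehydrogenase complex, was at 400.5, 249 and 203 CPM in WT CD and at 238, 278 and 234 CPM in HoipA-KO CD. The genotypes overlapped on CD, where HoipA-KO CD replicate 2 was above WT CD replicate 2. The HFD levels were 292, 313 and 279 CPM in WT and 219, 259 and 222 CPM in HoipA-KO, without overlap. The log2 fold changes of −0.38 ± 0.21 on CD and −0.34 ± 0.19 on HFD were not called (adjusted p = 0.173 and 0.240). Without WT CD replicate 1 the value on CD was −0.004, and without WT CD replicate 2 it was −0.68 and called (adjusted p = 0.0186).

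Suclg1, the alpha subunit of succinate-CoA ligase, was the most even member in WT CD, at 121, 103 and 117 CPM. It was at 65.4, 70.2 and 70.3 CPM in HoipA-KO CD. On HFD it was at 92.3, 113 and 89.8 CPM in WT and at 74.0, 67.2 and 71.7 CPM in HoipA-KO. WT CD replicate 3 sat among the other WT libraries for this gene, while it was the lowest WT library for Pdha1, Pc, Cs, Idh3a, Ogdh, Fh1 and Mdh2. The log2 fold change was −0.70 ± 0.14 on CD (adjusted p = 0.00445; −0.76 and 0.00294 with 12 libraries) and −0.47 ± 0.13 on HFD (adjusted p = 0.0424, or 0.0795 with 12 libraries).

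Fh1, which hydrates fumarate to malate, was at 166, 106 and 62.9 CPM in WT CD and at 66.3, 68.2 and 75.0 CPM in HoipA-KO CD. Its HFD levels were 97.0, 108 and 82.9 CPM in WT and 64.4, 63.3 and 71.6 CPM in HoipA-KO. Only WT CD replicate 3 fell within or below the HoipA-KO libraries. On the log2 scale the fold change was −0.95 ± 0.19 on CD (adjusted p = 0.00463, or 0.0740 with 12 libraries) and −0.60 without WT CD replicate 1, and the −0.53 ± 0.17 on HFD was not called (adjusted p = 0.0750).

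Mdh2, which oxidises malate to oxaloacetate in the mitochondrion, was at 418, 239.6 and 145 CPM in WT CD and at 213, 224 and 258 CPM in HoipA-KO CD. HoipA-KO CD replicate 3 was above WT CD replicate 2. On HFD the levels were 272, 317 and 241 CPM in WT and 189, 207 and 232 CPM in HoipA-KO, without overlap. The log2 fold changes of −0.50 ± 0.24 on CD and −0.40 ± 0.21 on HFD were not called (adjusted p = 0.118 and 0.225). Without WT CD replicate 1 the value on CD was −0.05, and without WT CD replicate 2 it was −0.85 and called (adjusted p = 0.0125).

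Between diets in WT, 1 of the 9 was called, and the values turned on which WT CD library was in the fit. Pdhb was called lower on HFD than on CD (log2 fold change of −0.71 ± 0.16, adjusted p = 0.0190), with 5.47% of genes called lower. With 12 libraries it was not called (adjusted p = 0.0594, with 5.97% of genes called lower). The other 8 were not called, and their log2 fold changes ran from −0.54 for Pdha1 to 0.22 for Idh3a. Without WT CD replicate 1, Pdhb was no longer called (−0.49, adjusted p = 0.0516) and Idh3a was called higher on HFD (0.88, adjusted p = 0.00436), with 14.5% of genes called higher. The values of Pc, Cs, Ogdh and Mdh2 turned positive there (0.11, 0.20, 0.26 and 0.23), and the median of the 9 was 0.11. Pdha1, Pdhb and Fh1 were called lower without WT CD replicate 2 (−0.88, −0.88 and −0.79), with 1.59% of genes called lower, and the median was −0.66. In HoipA-KO no member was called between diets, nor was any gene (0% of genes called lower), while 415 of 18427 genes had an unadjusted p under 0.05 in edgeR, none of them a member, and DESeq2 called 7 genes. The log2 fold changes of the 9 ran from −0.21 for Cs to 0.05 for Suclg1. For Pdhb, Cs and Idh3a (−0.20, −0.21 and −0.10) the HoipA-KO HFD libraries all lay below the HoipA-KO CD libraries. How many of all genes did so was not computed, and no effect of diet is read from it.

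HoipA-KO on CD was also set against WT on HFD, which shares its libraries with the comparisons above. Pdha1, Pc, Idh3a and Suclg1 were called lower (log2 fold changes of −0.69, −1.87, −1.18 and −0.52), with 9.07% of genes called lower. With 12 libraries Pc and Suclg1 were called, with 3.82% of genes called lower. The 4 calls fell to 1 when WT HFD replicate 1 or 2 or HoipA-KO CD replicate 1 or 2 was left out, and that 1 was Pc. The share of genes called lower fell as well, to 2.08%, 2.46%, 2.73% and 2.86% in that order. All members but Mdh2 had every HoipA-KO CD library below every WT HFD library. How many of all genes did so was not computed, so this is no result about the members.

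The genotype difference was tested for a change with diet by the interaction of genotype and diet. None of the 9 was called (adjusted p from 0.192 for Pdhb to 0.952 for Ogdh), with 3.91% of genes called in either direction. That share itself rested on the controls, at 18.2% (3668 genes) without WT CD replicate 1 and 1 gene without WT CD replicate 2. The interaction of Pdhb was 0.51 ± 0.21 on the log2 scale, the smallest unadjusted p of the 9 (0.0383), and DESeq2 called it (adjusted p = 0.0456). That of Pc was 0.25 ± 0.43. Without WT CD replicate 1, 1 member was called, Idh3a, with an interaction of −0.98. These tests do not show that the differences were alike on CD and HFD.

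The genes that feed the PDH complex were read with the members. Mpc1 was lower in HoipA-KO on CD and HFD (log2 fold changes of −1.20 ± 0.21 and −0.93 ± 0.20, adjusted p = 0.00253 and 0.0216). Mpc2 fell on CD by 1.44 ± 0.26 (adjusted p = 0.00254), and its HFD value of −0.79 ± 0.23 was not called (adjusted p = 0.0546). With 12 libraries only Mpc2 on CD was called of these 4 values. Mpc1 was at 327, 245 and 97.6 CPM in WT CD and at 127, 121 and 125 CPM in HoipA-KO CD, so WT CD replicate 3 lay below all HoipA-KO CD libraries.

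The other PDH subunits fell with Pdha1 and Pdhb. Dlat, the acetyltransferase core, had log2 fold changes of −0.78 on CD and −0.75 on HFD (adjusted p = 0.0165 and 0.0360). Dld, the shared dihydrolipoamide dehydrogenase, had −0.86 and −0.80 (adjusted p = 0.0135 and 0.0356). Pdhx, which tethers Dld to the core, had −0.87 and −0.67 (adjusted p = 0.00257 and 0.0222). All 3 were called on CD with 12 libraries and only Pdhx on HFD. Lias, which makes the lipoyl group that Dlat and Dlst carry, was lower on both diets (−0.93 and −0.57, adjusted p = 0.00225 and 0.0380). Lipt1, which transfers it, fell on CD by 1.36 (adjusted p = 0.00362), and its HFD value of −0.81 was not called (adjusted p = 0.0543). Lipt2 was not called on either diet. With 12 libraries 2 of these 3 lipoate genes were called lower on CD and 0 on HFD.

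The kinases that inactivate PDH and the phosphatases that reactivate it did not move together. Pdk2 was lower in HoipA-KO on CD, with 123 and 137 CPM in WT replicates 1 and 2 against 30.5 to 50.6 CPM in HoipA-KO (log2 fold change of −1.58 ± 0.21, adjusted p = 0.000771), and not called on HFD (−0.32, adjusted p = 0.279), where WT was at 54.0 to 63.7 CPM. Pdk1 (−0.60 and 0.34), Pdk3 (−0.67 and 0.29) and Pdk4 (0.58 and −0.80) were not called on CD or HFD. Pdk4 was at 89.1, 144 and 165 CPM in WT HFD and at 55.8, 109 and 64.5 CPM in HoipA-KO HFD, so the groups overlapped. With 12 libraries Pdk3 was called lower on CD, but its level in WT CD replicate 3 was 43.0 CPM against 16.2 and 30.2 CPM in the other 2. Of the phosphatases, Pdp1 was called higher on CD (1.20 ± 0.26, adjusted p = 0.00632), with 18.9% of genes called higher there, and Pdp2 lower (0.501 times the WT level, adjusted p = 0.00621). Neither was called with 12 libraries, and none of the 3 phosphatase genes was called on HFD.

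Among 10 other enzyme subunits of the cycle, 6 were called lower on CD and 4 on HFD, and none higher (medians of −0.62 and −0.37). The shares of all genes called lower were 18.8% and 7.62%. Suclg2, the partner of Suclg1 for GTP, fell most on CD, where its value was −1.47 ± 0.12 on the log2 scale (adjusted p = 0.000452). Its HFD value was −0.51 (adjusted p = 0.0222). Its level in WT HFD was 45.1 to 51.9 CPM, below the 97.4 and 104 CPM of WT CD replicates 1 and 2 and above the 44.1 CPM of WT CD replicate 3. Sdha, the flavoprotein of succinate dehydrogenase, was lower on both diets (−0.96 and −0.61, adjusted p = 0.00384 and 0.0452), while Sdhb, Sdhc and Sdhd were not called on either. With 12 libraries 3 of the 10 were called on CD and none on HFD.

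**Figure D4:**
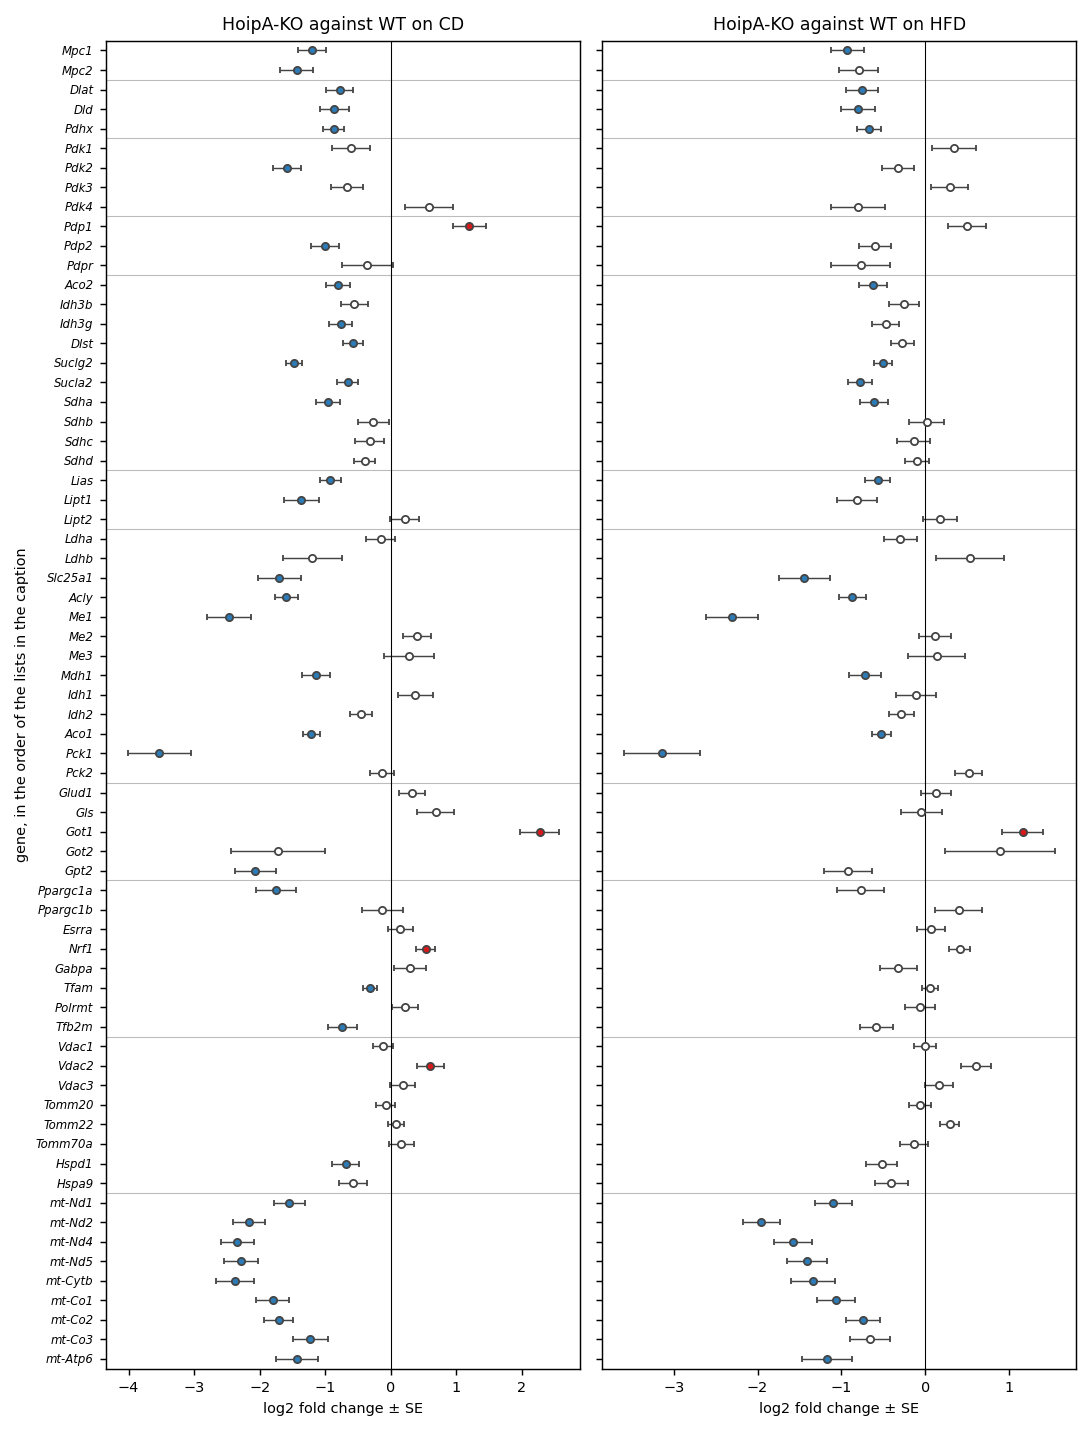
Log2 fold changes of HoipA-KO against WT (horizontal axis, with bars of 1 SE, 11 libraries) on CD (left) and HFD (right) for genes around the 9 members. From top to bottom, separated by lines, are pyruvate transport, other PDH subunits, PDH kinases, PDH phosphatases, other TCA cycle subunits, lipoate attachment, enzymes outside the cycle, amino acid entry, biogenesis regulators, outer membrane and chaperones, and mRNAs of mitochondrial DNA. Blue was called lower, red higher and open not called, with Pck1 farthest to the left at −3.53 and −3.14 and Got1 farthest to the right at 2.27 and 1.16.

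Of 13 enzymes and carriers that handle pyruvate, lactate and citrate outside the cycle, 6 were called lower on CD and the same number on HFD. The shares of all genes called lower were 18.8% and 7.62%. With 12 libraries 5 of the 13 were called lower on CD and 2 on HFD, with 19.1% and 2.25% of genes called lower. Pck1, which makes phosphoenolpyruvate from oxaloacetate for glycerol synthesis, was at 145, 62.4 and 136 CPM in HoipA-KO CD and at 1817 and 834 CPM in WT CD replicates 1 and 2. Its log2 fold changes were −3.53 on CD and −3.14 on HFD (adjusted p = 0.000785 and 0.00871). Me1, the cytosolic malic enzyme that makes NADPH, had −2.47 and −2.31 (adjusted p = 0.000767 and 0.00871). Both were also called on both diets with 12 libraries. Of 5 genes of amino acid entry, Got1, the cytosolic aspartate aminotransferase, was called higher on both diets (2.27 and 1.16, adjusted p = 0.000631 and 0.0207), against 4.2% of genes called higher on HFD, and on CD alone with 12 libraries. Gpt2, the mitochondrial alanine aminotransferase, had a log2 fold change of −2.07 on CD, called lower (adjusted p = 0.00125), and −0.92 on HFD, not called (adjusted p = 0.0659).

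Further lists of mRNAs for mitochondrial proteins were read, and no test compared the lists with each other. On CD 18.8% of all genes tested were called lower and 18.9% higher, and on HFD 7.62% and 4.2%. The counts that follow were not tested against these shares. Of 9 mRNAs encoded by mitochondrial DNA, 9 were called lower on CD and 8 on HFD, with medians of −1.80 and −1.17, and with 12 libraries 8 and 1 were called. On CD mt-Cytb (−2.38) and mt-Nd4 (−2.34) fell most. Of 8 outer membrane and chaperone genes, Hspd1 was lower on CD (−0.69, adjusted p = 0.0280), Vdac2 higher (0.60, adjusted p = 0.0454), neither was called with 12 libraries, and none of the 8 was called on HFD. Of 8 regulators of mitochondrial biogenesis, 3 were called lower and 1 higher on CD. Ppargc1a, a coactivator of these genes, was lower on CD (−1.76 ± 0.31, adjusted p = 0.00233), as was Tfb2m (−0.74, adjusted p = 0.0256), a mitochondrial transcription factor, which was not called with 12 libraries. None of the 8 was called on HFD.

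Markers of some cell types differed between the genotypes. On CD 18.8% of all genes tested were called lower and 18.9% higher, and on HFD 7.62% and 4.2%. With 12 libraries these shares were 19.1% and 15.6% on CD, and 2.25% and 0.531% on HFD. Of 10 adipocyte genes, 9 were called lower in HoipA-KO on each diet, with medians of −1.92 on CD and −2.03 on HFD, and the mean of the list was lower in every HoipA-KO library than in any WT library. With 12 libraries 8 and 7 of them were called lower. Of 9 macrophage genes, 9 were called higher on CD and 3 on HFD, with medians of 4.08 and 1.03, and with 12 libraries the counts were 9 and 0. Of 5 endothelial genes, 3 were called lower on CD and 4 on HFD (medians of −1.27 and −1.25), or 2 and 0 with 12 libraries. Of 5 progenitor genes, 3 were called higher on CD and 0 on HFD (medians of 1.32 and 0.44), with the same counts with 12 libraries. Of 5 mesothelial genes, 0 were called on either diet with 11 or 12 libraries (medians of 0.93 and −0.21 with 11). In bulk tissue, fewer cells of a type and less RNA per cell cannot be told apart. The part of these shifts in the levels of the 9 genes was not tested. The mean of the 9 genes on the log2(CPM + 1) scale ranged from 7.18 to 8.41 in WT and from 6.95 to 7.17 in HoipA-KO, and that of the adipocyte list from 10.0 to 11.7 and from 8.01 to 9.01.

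**Figure D5:**
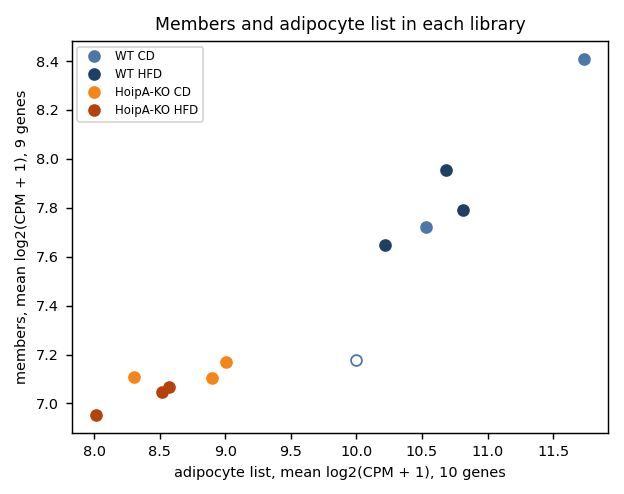
Mean log2(CPM + 1) of the 9 genes (vertical axis) against that of 10 adipocyte genes (horizontal axis), 1 point per library, with WT CD replicate 3 open. The 6 HoipA-KO libraries lay between 8.01 and 9.01 on the horizontal axis and the 6 WT libraries between 10.0 and 11.7, and WT CD replicate 3 had a member mean of 7.18, close to the 7.17 of HoipA-KO CD replicate 3.

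Relative to the adipocyte list of the same library, Pc behaved unlike the other members. The level of Pc less that of the list, on the log2(CPM + 1) scale, was −1.66 to −0.97 in the WT libraries and −1.30 to −0.77 in HoipA-KO, so the genotypes overlapped. For each of the other 8 the 2 genotypes did not overlap, and the member was higher relative to the list in HoipA-KO. Pdha1, for example, was at −2.99 to −2.48 in WT and −1.96 to −0.91 in HoipA-KO, and Cs at −2.41 to −1.80 and −0.90 to −0.09. The list itself had median log2 fold changes of −1.92 on CD and −2.03 on HFD, while those of all genes tested were −0.06 and 0.06. A gene that fell less than the list is therefore higher relative to it, whatever its function. Pc fell about as far as the list (−2.20 and −1.95). The share of all genes with the same pattern was not computed. These values are a description of 12 libraries and carry no test.

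The genes whose profile was most like the mean of the 9 were Auh, Ech1, Lonp2, Pgrmc2 and Tmem70, among 10251 genes outside the lists with a mean of at least 10 CPM. Likeness was the root mean square difference of the centred log2(CPM + 1) profile over 12 libraries, from 0.095 to 0.114 for these 5 and 0.596 for the median gene. Auh and Ech1 are mitochondrial or peroxisomal enzymes of leucine and fatty acid breakdown, and Tmem70 assists assembly of ATP synthase. Auh was at 74.0, 46.4 and 28.4 CPM in WT CD, 55.4, 58.0 and 48.2 CPM in WT HFD, 27.8, 29.3 and 33.0 CPM in HoipA-KO CD and 29.4, 24.9 and 30.0 CPM in HoipA-KO HFD. Of the members, Fh1 was nearest to the mean profile (0.115) and Pc farthest (0.627).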

How the data were processed

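Bulk poly-A RNA-seq of GWAT was measured in 12 libraries (3 per group, 3 mice pooled in each). Per the labels, the authors trimmed reads with Trim Galore 0.6.7, aligned them with STAR 2.7.10a and estimated counts with Salmon 1.5.2. GRCm38 is named in the submitters' processing notes, while the study's methods name a human assembly, so file coordinates were not used. The deposited estimated counts carry no normalization and hold all genes, with a second table of protein-coding genes. The authors' tables of fold changes and p-values, made with DESeq2, were not used.

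Counts were rounded. edgeR 4.0.16 (filterByExpr, TMM, quasi-likelihood test, 4-group model, no block) was fitted to 11 libraries without WT CD replicate 3 and again to 12. DESeq2 1.42.0 was an alternative. Both were run on simulated counts with the same fixed spread for all genes and no outlying library. That spread was not taken from these libraries, so the run does not test the methods at the spread seen here. Replicates are pools with no stated independence beyond that, so p-values measure the spread between these libraries. The members, pathway lists, markers and the Pc to Pdha1 ratio were chosen with earlier results of these data known. Named were all members, every gene of pyruvate transport, PDH kinases and other PDH subunits, in each other list the 2 called genes with the largest change on CD or HFD, and the 5 genes nearest to the mean profile. Lipt2, Sdhb, Sdhc, Sdhd and Pdha2 were named after their values were seen. Promoters came from RefSeq (GRCm38.p6). Alternatives, of which those without private genes or with other pairs of WT CD libraries were added after seeing the data, changed the scaling, filter, table, libraries, model and test.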

Additional observations from a re-analysis of the deposited data

Results flagged for a closer look

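WT CD replicate 3 held signal that no comparison with 11 libraries uses. Pdha2, the testis form of the PDH E1 alpha subunit and the retrogene counterpart of Pdha1, was at 80.9 CPM there, at 0.34 CPM in WT CD replicate 2 and at 0.02 CPM in WT CD replicate 1, and it was at 0 in all other libraries. The 10 male germ cell markers summed to 11114 CPM in that library and to 388 CPM in WT CD replicate 2. Pdha1 was at 139 CPM in WT CD replicate 3, the lowest of the 6 WT libraries, and the part of the germ cell signal in this was not tested.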

How the results depend on the processing

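Each count of called members was recomputed under changes of scaling, filter, table, libraries, model and test, and those moved by over 1.5 times follow. In HoipA-KO against WT on CD, 7 members were called. With all 12 libraries and with 12 libraries without genes private to 1 library (chosen after seeing the data) the count was 4, and it was 3 with WT CD replicates 2 and 3 as controls and 3 with replicates 1 and 3 (both chosen after seeing the data). With replicates 2 and 3, Ogdh and Mdh2 turned to 0.14 and 0.26. Leaving out 1 library gave 5 to 9. On HFD the 5 calls became 3 with library size scaling, 3 without the filter, 3 with WT CD replicates 2 and 3, 2 with 12 libraries without private genes, and 1 with all 12 libraries, with WT CD replicates 1 and 3 or at an adjusted p of 0.01. Leaving out 1 library gave 1 to 7. For HoipA-KO CD against WT HFD, the 4 calls became 2 without the filter, with all 12 libraries or with WT CD replicates 1 and 3, and 0 at an adjusted p of 0.01 (1 to 6 with 1 library left out). Between diets in WT, the 1 call became 3 with the protein-coding table or DESeq2, and 0 with all 12 libraries, with only the groups compared, with WT CD replicates 1 and 3 or at an adjusted p of 0.01 (1 to 3 with 1 library left out, where the 1 without WT CD replicate 1 was Idh3a, higher on HFD). No member was called between diets in HoipA-KO under any alternative. The cause of these moves was not tested. The whole set of genes moved in part as well. With all 12 libraries the share called lower was 2.25% on HFD, against 7.62% with 11. For HoipA-KO CD against WT HFD it was 3.82% against 9.07%. It changed little on CD (19.1% against 18.8%) and between diets in WT (5.97% against 5.47%). A moved count of members is therefore not a result about the members alone. Where 1 WT CD library remained, it was assumed to vary like the other groups.

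Whether the replicate numbers pair the libraries was not settled, because libraries with different numbers were not compared. Of 18 pairs with the same number, 5 had deviations from the group means correlated above 0.1, and the range was −0.33 to 0.53. Between HoipA-KO CD and HoipA-KO HFD the values were 0.16, 0.53 and 0.29 for replicates 1, 2 and 3. With a replicate block 6 members were called on CD, 4 on HFD, 0 between diets in WT, 4 for HoipA-KO CD against WT HFD and 0 for the interaction, whose Ogdh value became −0.0038. The interaction had 0 calls, 1 with DESeq2, 1 with WT CD replicates 2 and 3 and 0 to 1 with 1 library left out.

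Uncalled log2 values changed sign as follows. Between diets in WT, Ogdh and Mdh2 were 0.045 and 0.041 with 12 libraries and 0.012 and 0.012 without private genes. With WT CD replicates 2 and 3, Pdha1 was 0.27, Pc 0.49, Cs 0.52, Ogdh 0.41, Fh1 0.21 and Mdh2 0.55. With 1 library left out, Pc ran from −0.66 to 0.11, Cs from −0.71 to 0.20, Idh3a from −0.22 to 0.88, Ogdh from −0.44 to 0.26 and Mdh2 from −0.59 to 0.23. Between diets in HoipA-KO, library size scaling, which moved the median of all genes from −0.01 to 0.09, gave Pdha1 0.012, Pc 0.031, Idh3a 0.0088, Ogdh 0.0024 and Fh1 0.032, and Pc ran from −0.26 to 0.13 with 1 library left out. For the interaction, Pc, Cs, Ogdh and Mdh2 were −0.050, −0.16, −0.13 and −0.17 with 12 libraries, −0.020, −0.14, −0.096 and −0.14 without private genes, and −0.0068, −0.079, −0.051 and −0.11 with WT CD replicates 1 and 3. With replicates 2 and 3, Pdha1 was −0.36, Pc −0.56, Cs −0.72, Ogdh −0.50, Fh1 −0.27 and Mdh2 −0.68. With 1 library left out, Pc ran from −0.18 to 0.58, Cs from −0.40 to 0.50, Idh3a from −0.98 to 0.12, Ogdh from −0.35 to 0.34 and Mdh2 from −0.36 to 0.45.

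Over all genes, the 6947 calls on CD became 4208 with only the groups compared and 3619 at an adjusted p of 0.01. On HFD 2179 became 503 with 12 libraries, 905 with 12 libraries without private genes, 4455 with DESeq2, 1298 and 672 with WT CD replicates 2 and 3 or 1 and 3, and 185 at an adjusted p of 0.01. Between diets in WT 2731 became 1502 with the block, 0 with only the groups compared, 4551 with DESeq2, 7046 with WT CD replicates 2 and 3 and 660 at an adjusted p of 0.01. With 1 library left out, the counts ran from 5082 to 7723 on CD, from 279 (without WT HFD replicate 1) to 3797 (without WT CD replicate 2) on HFD, from 1045 (without WT HFD replicate 3) to 5985 (without WT CD replicate 1) between diets in WT, from 493 (without WT HFD replicate 1) to 4416 (without WT CD replicate 2) for HoipA-KO CD against WT HFD, and from 1 (without WT CD replicate 2) to 3668 (without WT CD replicate 1) for the interaction.

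With 2 WT CD libraries that differed, the CD comparison rests on few controls. The WT CD libraries, and the HoipA-KO HFD libraries as well, also differed in transcripts of other tissues. Group, cell makeup and RNA per cell cannot be told apart in bulk tissue.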
